A study of Mus musculus with 6 samples.

Results

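Delta, PP and epsilon cells are the minor endocrine cells of the pancreatic islet, and 8 genes known from them (Sst, Ppy, Pyy, Ghrl, Hhex, Rbp4, Ghsr and Lepr) were followed across 6 arrays. The members are all probe sets whose platform gene symbol is 1 of these 8 names, which gave 11 probe sets of the 45037 tested (8 of 18193 named genes). Lepr had 4 probe sets and each other gene had 1. The arrays measured islet RNA from 3 mice labelled knockout, which carried floxed Ppar-beta alleles (gene symbol Ppard) together with a Cre transgene driven by the Pdx1 promoter, and from 3 control littermates with the floxed alleles and no Cre. All mice were 8 weeks old, on a mixed SV 129/C57BL/6 background, and each array came from a different animal. The Pdx1 promoter is active in the early pancreatic epithelium, from which acinar, duct and all islet endocrine cells arise. No array came from mice with Cre and intact Ppard alleles, so the deletion and the transgene cannot be told apart. The labels name the material beta-cells, whereas the protocol describes collagenase-freed whole islets. The hormone transcripts of the delta, PP and alpha cell lay at percentile 99.7 or higher of all probe sets by mean level, as did Ins2, so these samples held several endocrine cell types.

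Somatostatin (Sst) is the hormone of the delta cell and restrains insulin and glucagon release from neighbouring cells through somatostatin receptors. The transcription factor HHEX maintains the delta cell, and GHSR, the ghrelin receptor, is carried in the mouse islet mainly by delta cells, so that ghrelin from epsilon or stomach cells can raise somatostatin release. Rbp4, the plasma retinol carrier, and Lepr, the leptin receptor, are also transcribed preferentially in mouse delta cells. Ppy encodes pancreatic polypeptide, the PP cell hormone, and Pyy encodes peptide YY, a peptide of the same family found in several islet endocrine types.

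Promoters are shown for the 2 genes that passed the test (Ghsr and Rbp4) and the 3 abundant hormone genes (Sst, Ppy and Pyy); that of Hhex, whose groups were also separate, is not printed. Sequences are RefSeq's for GRCm38.p6, read on the strand of the gene, and capitals mark the motifs that a search found. Sst is shown as chr16:23890874-23890903 (minus strand, bases -59 to -30 from the start site), with the full cyclic AMP response element TGACGTCA in capitals.
Sst: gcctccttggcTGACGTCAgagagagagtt
Rbp4 is shown as chr19:38124822-38124851 (minus strand, bases -40 to -11), with the TATA box TATAAA in capitals.
Rbp4: tccccccggagcTATAAAggaccgacggcc
Ppy and Pyy are shown as chr11:102101320-102101569 and chr11:102107833-102108082 (both minus strand, bases -250 to -1). They are direct neighbours on chromosome 11, with 0 annotated genes between them.
Ppy: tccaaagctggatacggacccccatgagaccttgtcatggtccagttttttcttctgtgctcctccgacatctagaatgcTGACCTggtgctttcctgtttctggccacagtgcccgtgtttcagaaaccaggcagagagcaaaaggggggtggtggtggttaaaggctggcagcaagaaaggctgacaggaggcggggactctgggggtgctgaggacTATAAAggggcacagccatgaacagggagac
Pyy: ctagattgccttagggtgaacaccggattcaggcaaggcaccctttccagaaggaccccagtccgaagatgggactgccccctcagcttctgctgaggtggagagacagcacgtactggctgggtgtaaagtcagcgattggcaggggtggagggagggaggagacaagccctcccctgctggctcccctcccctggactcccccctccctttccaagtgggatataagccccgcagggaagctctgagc
Ghsr is shown as chr3:27371101-27371350 (plus strand, bases -250 to -1).
Ghsr: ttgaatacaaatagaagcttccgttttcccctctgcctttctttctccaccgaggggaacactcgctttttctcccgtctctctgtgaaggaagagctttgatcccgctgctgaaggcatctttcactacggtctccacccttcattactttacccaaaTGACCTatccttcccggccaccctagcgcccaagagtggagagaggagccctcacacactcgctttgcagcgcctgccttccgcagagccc
In Ppy the capitals mark TATAAA and 1 copy of the nuclear receptor motif AGGTCA on the opposite strand, where it reads TGACCT. In Ghsr they mark 1 such copy, also on the opposite strand, and in Pyy no searched motif was found in the stretch shown. The search covered windows of 300 bases (250 before and 50 after each start site), on both strands except for TATAAA, which was read on the gene's strand. The 8 genes had 14 windows. TGACGTCA was found in 1 of them (Sst) against 1.79% of all 32851 windows, TATAAA in 2 (Ppy and Rbp4) against 8.32%, and AGGTCA in 4 (of Ghrl, Ghsr and Ppy) against 16.3%. The Ghrl windows with AGGTCA overlap and hold the same copies, so these 4 windows stand for 3 genes. The direct repeat AGGTCANAGGTCA, the form bound by PPAR with its partner RXR, contains AGGTCA and was found in 0 of the 14 windows against 0.0396% of all windows. A match describes the letters only. Only exact copies were searched, and a repeat this rare would be missing from most sets of 14 windows, so its absence carries no weight.

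The targeted gene and the arrays set the frame for these values. Ppard showed no reduction under the knockout label: its brighter probe set read 7.75, 7.56 and 7.12 in controls 1 to 3 and 8.01, 8.20 and 7.70 in knockouts 1 to 3 (difference 0.49 ± 0.20 SE, adjusted p = 0.377), and its dimmer one differed by 0.35 ± 0.11 (adjusted p = 0.255). Which exon was deleted is not given in the sources used here, and probes outside it would not report the deletion, so the genotype is taken from the labels. Array medians lay between 5.39 and 5.49. Digestive enzyme and other acinar genes differed between animals: 26 acinar markers averaged 6.75, 11.15 and 11.31 (log2) for controls 1 to 3 and 8.58, 5.67 and 5.80 for knockouts 1 to 3. Their summed level ranged from 12.47 to 16.77 (log2) in controls and from 11.30 to 14.48 in knockout-labelled arrays, 25 of 26 had a lower mean in the latter and 0 passed the test (limma, adjusted p; 8 lower and 1 higher at an unadjusted p under 0.05). The brightest of them, Ctrb1 (chymotrypsinogen) and Cela3b (an elastase), read 10.45 and 9.57 in control 1 and 8.95 and 8.54 in knockout 3, so acinar RNA was measurable on every array. Controls 2 and 3 therefore stood apart, and the values of members and called genes without them are given beside the others.

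Across the 8 genes, 7 had a lower mean in knockout-labelled arrays, as did 49.6% of all genes, and 2 of them passed the test. Ghsr fell by 1.17 on the log2 scale (SE 0.12), to a level 55.7% lower, and Rbp4 fell by 0.73 (SE 0.0981), to a level 39.7% lower. Hhex was 49.6% lower without passing. The 3 abundant hormone genes Sst, Pyy and Ppy were 20.4% to 29.6% lower and did not pass, and Ghrl and Lepr overlapped between groups. Over all probe sets 0.897% passed adjusted p 0.05 (limma with Benjamini-Hochberg adjustment), 0.184% as lower in knockout-labelled arrays, against 2 of the 11 member probe sets. In 6 of the 11, every control lay above every knockout array, against 8.85% of all probe sets, and in 0 the reverse held, against 10.1%. On 1 probe set per gene, 6 of 8 were lower at an unadjusted p under 0.05, against 5.58% of all genes. The median difference of the 8 genes, on the brightest probe set of each, was -0.43, against 0.00196 over all 18193 genes. RNA of whole islets cannot tell fewer delta or PP cells from less of these transcripts per cell.

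**Figure D1:**
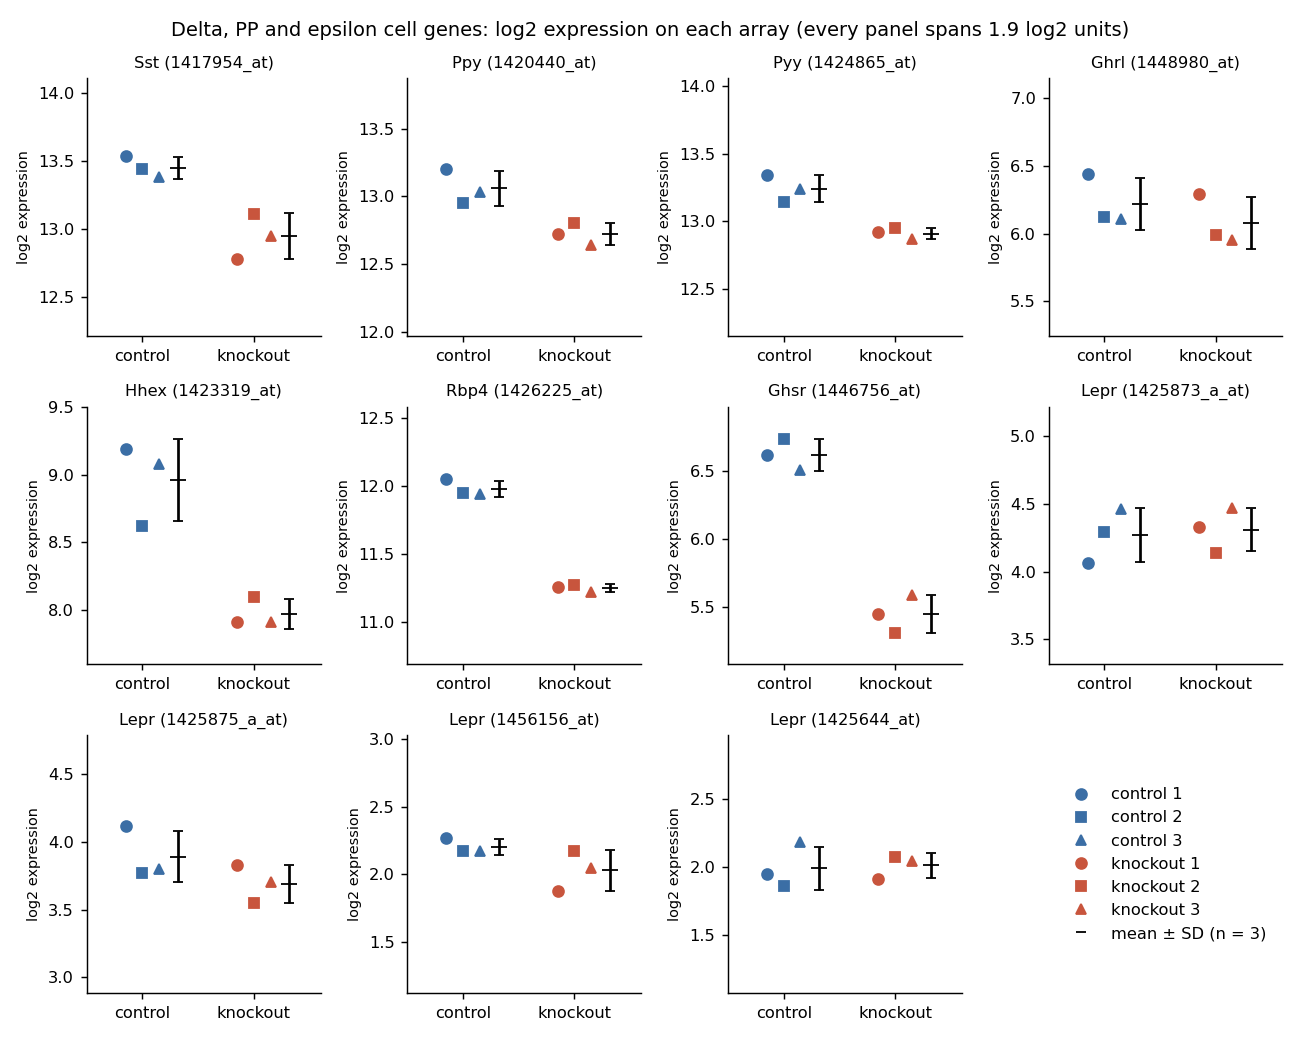
Log2 expression of the 11 member probe sets on each of the 6 arrays, with group means and SD (n = 3) as bars beside the points; every panel spans the same range. The groups are separate for Sst, Ppy, Pyy, Hhex, Rbp4 and Ghsr and overlap for Ghrl and all 4 Lepr probe sets.

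Of the hormones, Sst read 13.54, 13.44 and 13.38 in controls 1 to 3 and 12.78, 13.11 and 12.95 in knockouts 1 to 3. All controls lay above all knockout arrays, by a gap of 0.27, and knockout 1 was the lowest. The difference was -0.51 ± 0.12 (SE, 95% interval -0.80 to -0.21), which did not pass over all probe sets (adjusted p = 0.152) and stood at rank 1385 of 45037 by p. Sst lies at percentile 99.9 of all levels, close to the top of the array's range.

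Ppy, the PP cell hormone, read 13.20, 12.95 and 13.03 in controls 1 to 3 and 12.72, 12.80 and 12.64 in knockouts 1 to 3. The groups did not overlap, with a gap of 0.15, less than the 0.25 spanned by the controls themselves. Ppy differed by -0.34 ± 0.11 (SE, interval -0.62 to -0.07, adjusted p = 0.282). Pyy, its neighbour on the chromosome, read 13.34, 13.14 and 13.24 in controls and 12.92, 12.95 and 12.87 in knockout-labelled arrays. Its knockout arrays lay within 0.08 of each other, all under the lowest control. Pyy differed by -0.33 ± 0.11 (interval -0.58 to -0.08, adjusted p = 0.263), so both family members differed by nearly the same amount. Both lie at the bright end of the arrays, at percentiles 99.7 and 99.8. Of the 286 genes with a mean log2 of at least 12, which include Sst, Ppy and Pyy, 31 had every control above every knockout array. The reverse held in 69, and over all genes these shares were 9.06% and 12.1%. Among these bright genes 0 passed the test with limma (8 lower and 20 higher at an unadjusted p under 0.05), and the median difference was 0.0139.

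Ghrl encodes ghrelin, the epsilon cell hormone, which also needs acylation before it can activate GHSR. It read 6.44, 6.12 and 6.11 in controls 1 to 3 and 6.29, 5.99 and 5.95 in knockouts 1 to 3. Control 1 and knockout 1 were the high array of their groups, and knockout 1 lay above controls 2 and 3. The difference of -0.14 ± 0.15 (interval -0.50 to 0.21, adjusted p = 0.747) was smaller than the range within either group (0.33 and 0.34). Without control 1 it was -0.0351, and for control 1 against knockouts 2 and 3 it was -0.47 (adjusted p = 0.540).

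Hhex read 9.19, 8.62 and 9.08 in controls 1 to 3 and 7.91, 8.10 and 7.91 in knockouts 1 to 3. Every control was higher, by at least 0.52, and control 2 was the low control. The difference was -0.99 ± 0.17 (SE, interval -1.39 to -0.59), a level 1.98-fold lower, at rank 499 by p (adjusted p = 0.0593, limma). It passed without control 2 (-1.16, adjusted p = 0.0302) and in no other fit that left out 1 array (adjusted p 0.0710 to 0.217).

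Rbp4 read 12.05, 11.95 and 11.94 in controls 1 to 3 and 11.26, 11.27 and 11.22 in knockouts 1 to 3. It had the tightest groups of the members that were separate, with a range of 0.11 in controls and 0.04 in knockout-labelled arrays, against a gap of 0.68 between them. Rbp4 fell by 0.73 (interval of the difference -0.96 to -0.50, adjusted p = 0.0265), which is 1.66-fold, at rank 256 by p. The size barely moved when 1 array was left out (-0.75 to -0.69), but the call was kept only without control 1 (adjusted p = 0.0414). It was lost without control 2 (adjusted p = 0.0800), control 3 (0.107), knockout 1 (0.127), knockout 2 (0.119) and knockout 3 (0.103).

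Of the receptors, Ghsr read 6.62, 6.74 and 6.51 in controls 1 to 3 and 5.45, 5.31 and 5.59 in knockouts 1 to 3. The gap of 0.92 between the groups was over 3 times as wide as the range inside either one (0.23 and 0.28). Ghsr fell by 1.17 (SE 0.12, interval of the difference -1.47 to -0.88, adjusted p = 0.0097), which is 2.26-fold, and stood at rank 147 by p. The call was lost without knockout 1 (-1.17, adjusted p = 0.0604) and without knockout 2 (-1.10, adjusted p = 0.0544) and was kept in the other 4 such fits. Its single probe set lies at percentile 57.1 of all levels, and those of Ghrl, Hhex and Rbp4 at 58.4, 82.0 and 98.3.

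Lepr, the leptin receptor, was dim on all 4 probe sets, with level percentiles of 35.3, 28.3, 3.3 and 1.8. The brightest read 4.06, 4.29 and 4.46 in controls 1 to 3 and 4.33, 4.14 and 4.47 in knockouts 1 to 3, and the groups overlapped. It differed by 0.0413 ± 0.15 (SE, interval -0.31 to 0.39, adjusted p = 0.942). A probe set at background could not show a fall, so this interval does not exclude one in the transcript. The second read 4.12, 3.77 and 3.80 in controls and 3.83, 3.55 and 3.70 in knockout-labelled arrays (-0.20 ± 0.14, adjusted p = 0.604). The others differed by -0.17 ± 0.12 (adjusted p = 0.606) and 0.0143 ± 0.12 (adjusted p = 0.977). The probe sets of this gene thus disagreed in sign, and RMA values carry no detection call that would tell its level from background.

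**Figure D2:**
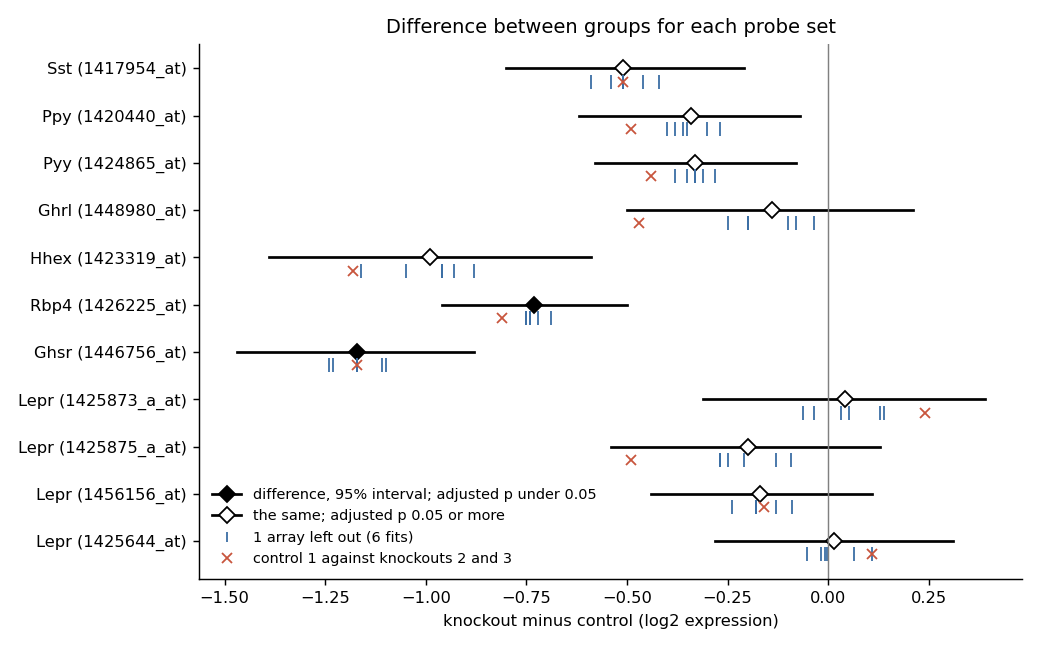
Difference between knockout-labelled arrays and control (log2) for each member probe set, with the 95% interval of the fit; filled diamonds passed adjusted p 0.05. Blue ticks are the 6 fits that each left out 1 array, and crosses compare control 1 with knockouts 2 and 3, which puts Ghsr at -1.17, Hhex at -1.18 and Ghrl at -0.47.

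The member values were then set beside the acinar level of each array. Control 1 had little acinar RNA (mean 6.75), close to knockouts 2 and 3, and had the highest value of all 6 arrays in 6 of the 8 genes (Sst, Ppy, Pyy, Ghrl, Hhex and Rbp4). Knockout 1 had more acinar RNA (8.58) than control 1, and its Sst, Ppy, Pyy, Hhex, Rbp4 and Ghsr values were all under every control. For control 1 against knockouts 2 and 3, Sst differed by -0.51, Ppy by -0.49, Pyy by -0.44, Hhex by -1.18, Rbp4 by -0.81 and Ghsr by -1.17. Control 1 was the highest array for the first 5 of these genes, and knockout 3 the lowest for Ppy, Pyy, Hhex and Rbp4, so these sizes are not a measure of the acinar level's part. With 1 control that comparison called 0 of the 8 genes (limma, 3 of 8 at an unadjusted p under 0.05). Without controls 2 and 3 only, 7 of 8 means were lower, their median was -0.54 and 0 passed (limma, 6 at an unadjusted p under 0.05). In that fit Ghsr differed by -1.17 (adjusted p = 0.119), Rbp4 by -0.80 (adjusted p = 0.154), Hhex by -1.21 (adjusted p = 0.104) and Sst by -0.59 (adjusted p = 0.312). Ppy differed by -0.48, Pyy by -0.43, Ghrl by -0.36 and the brightest Lepr probe set by 0.25 (adjusted p 0.315 to 0.634). With the acinar level as a covariate the median was -0.55 and 0 passed (6 at an unadjusted p under 0.05): Ghsr differed by -1.17 (adjusted p = 0.0935) and Rbp4 by -0.78 (adjusted p = 0.140).

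**Figure D3:**
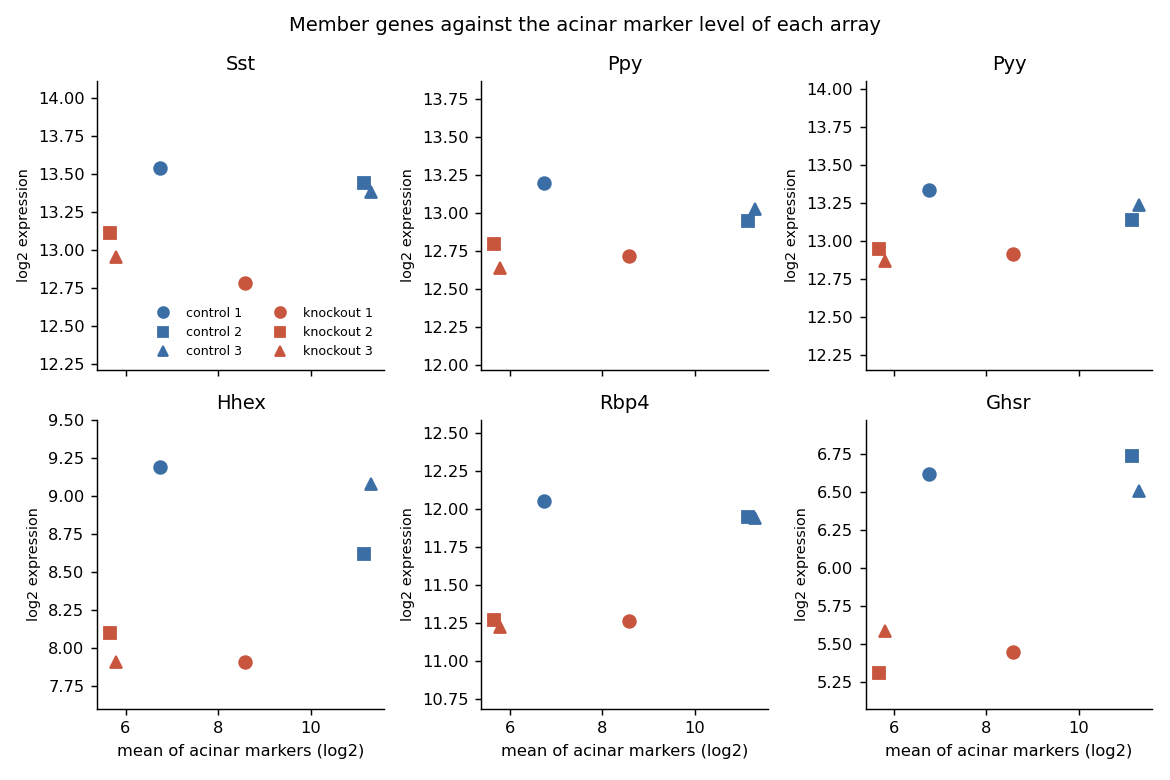
Log2 expression of 6 member genes on each array (vertical) against the mean log2 level of 26 acinar markers on that array (horizontal); blue are controls, red knockout-labelled arrays. Every control lies above every knockout array in each panel. Control 1, with an acinar mean of 6.75, is the highest array in all panels but that of Ghsr, and knockout 1 has an acinar mean of 8.58.

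Other genes of the same hormone axes did not share the pattern as a list. Of 31 measured (receptors, processing and acylation enzymes, carriers and leptin signalling genes), 0 passed the test. At an unadjusted p under 0.05 (limma), 3 were lower and 1 higher, against 5.58% of all genes lower. Means were lower in 16, and the median difference was -0.0046. That median was 0.05 after median centring of the arrays, -0.0352 with the acinar covariate and -0.0582 without controls 2 and 3. The 2 with the smallest p were Pcsk1, the prohormone convertase, at 0.54 ± 0.13 (SE, adjusted p = 0.152), and Gast, the gastrin gene, at -0.38 ± 0.12 (adjusted p = 0.254). The lowest difference of the list was that of Ucn3, at -0.95 ± 0.33 (SE, adjusted p = 0.305), and its groups overlapped. Other axis genes are named by role, and these and Ucn3 were chosen after their values were seen. The 5 somatostatin receptor genes differed by -0.16 (Sstr2) to 0.22 (Sstr3), with adjusted p of 0.451 or more, and Sstr3 was the bright one at 11.48 ± 0.10 for controls against 11.70 ± 0.06 (SD, n = 3 each). Npy4r, the receptor for pancreatic polypeptide, was dim at 2.66 ± 0.35 and 2.43 ± 0.15. Mboat4, the enzyme that acylates ghrelin, read 3.30 ± 0.22 and 3.35 ± 0.01.

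Further delta cell genes gave a mixed picture. Of 19 measured, 11 had lower means, 3 had every control above every knockout array (9.06% of all genes did), and 0 passed. At an unadjusted p under 0.05 (limma), 3 were lower and 0 higher, against 5.58% of all genes lower. Their median difference was -0.0230, which turned to 0.0301 after median centring (9 of 19 lower) and to 0.0119 without control 1. With the acinar covariate that median was -0.11 (15 of 19 lower), and without controls 2 and 3 it was -0.0896 (14 of 19 lower). Pdyn, the prodynorphin gene, read 8.46, 9.61 and 8.53 in controls and 7.49, 7.53 and 7.54 in knockout-labelled arrays. Its controls spread widely because control 2 was high, and it differed by -1.35 ± 0.30 (SE, adjusted p = 0.119). It passed when control 2 was left out (-0.97, adjusted p = 0.0349). Ndst4, a heparan sulfate modifying enzyme, differed by -0.62 ± 0.15 (adjusted p = 0.159), and by -0.61 and -0.33 on its dimmer probe sets.

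Alpha cells are the other non-beta endocrine type of the islet, and their genes were lower too. All 11 measured alpha cell genes had every control above every knockout array, against 9.06% of all genes, with a median difference of -0.60. Of these, 1 fell, 0 rose and 10 did not pass, against 1.1% of all genes that passed in either direction. At an unadjusted p under 0.05 (limma), 9 were lower and 0 higher, against 5.58% of all genes lower. Slc38a5, an amino acid transporter gene, read 6.30, 6.48 and 6.24 in controls and 5.23, 4.92 and 4.73 in knockout-labelled arrays. It fell by 1.38 (SE 0.15, adjusted p = 0.0122), a call lost without control 3 (adjusted p = 0.0602) or knockout 2 (adjusted p = 0.0739). Given the acinar covariate (-1.24, adjusted p = 0.114) or without controls 2 and 3 (-1.34, adjusted p = 0.148) it did not pass. Gcg, the glucagon gene, read 13.98, 13.94 and 13.93 against 13.80, 13.75 and 13.82, and differed by -0.16 ± 0.0956 (SE, adjusted p = 0.539).

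Beta cell markers and shared islet transcription factors were read in the same way. Of 10 beta cell markers, 8 had lower means, 1 fell and 0 rose, against 1.1% of all genes that passed in either direction, and the median was -0.12. At an unadjusted p under 0.05 (limma), 3 were lower and 0 higher, against 5.58% of all genes lower. In 1 of the 10 every control lay above every knockout array, against 9.06% of all genes, and in 9 the groups overlapped, against 78.8%. The 1 call was Slc30a8, the insulin granule zinc transporter (-0.82 ± 0.12, adjusted p = 0.0394, named as the only call), which was lost without control 1 (adjusted p = 0.0533), control 3 (0.161) or any 1 knockout array (0.123 to 0.175), and with median centring (0.0607). Without controls 2 and 3 it differed by -0.96 (adjusted p = 0.127), and with the acinar covariate by -0.96 (adjusted p = 0.118). Ins2 read 13.85, 13.83 and 13.87 in controls and 13.71, 13.87 and 13.82 in knockout-labelled arrays (-0.05, adjusted p = 0.887). Ins2 and Gcg both lie at percentile 100.0 of all levels, close to the top of the array's range. A small difference there does not show an unchanged transcript. Of 23 islet endocrine transcription factor genes other than Hhex, 15 had lower means and 3 had every control above every knockout array (9.06% of all genes did). With limma 0 passed, and the median was -0.0568. At an unadjusted p under 0.05 (limma), 5 were lower and 1 higher, against 5.58% of all genes lower. The median was -0.11 with the acinar covariate (19 of 23 lower) and -0.16 without controls 2 and 3 (21 of 23 lower). Insm1, a factor of all endocrine cells, differed by -0.44 ± 0.10 (adjusted p = 0.140), and Foxa2, a factor of the pancreatic epithelium, by -0.53 ± 0.20 (adjusted p = 0.331). Hhex differed by more than any of these 23, whose lowest value was -0.70 (Sox9, adjusted p = 0.352), and that contrast was not tested.

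**Figure D4:**
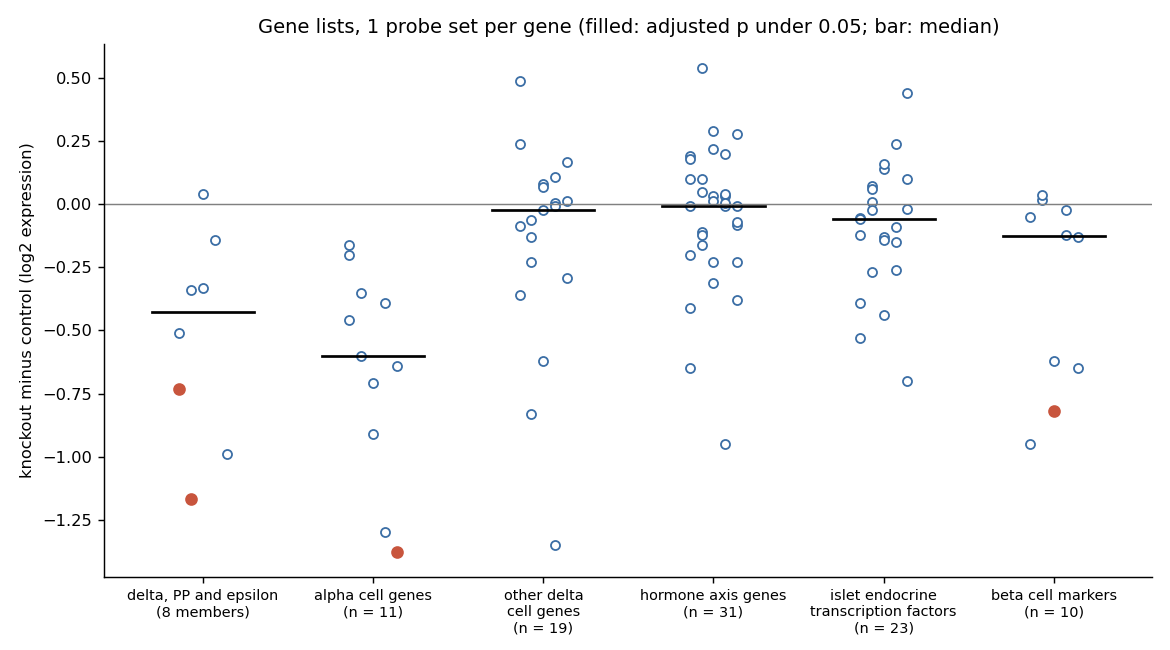
Difference between knockout-labelled arrays and control (log2) for each gene of 6 lists, 1 probe set per gene; filled points passed adjusted p 0.05 and bars are list medians. The medians are -0.43 for the delta, PP and epsilon genes, -0.60 for alpha cell genes and between -0.12 and -0.0046 for the other lists.

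**Figure D5:**
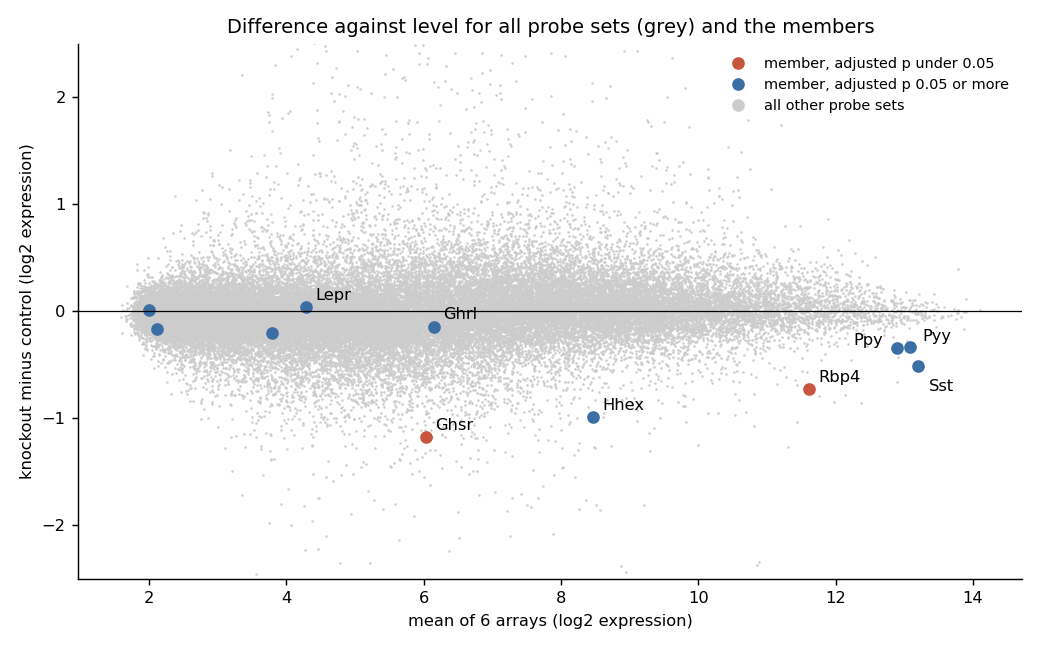
Difference between groups (log2, vertical) against the mean of the 6 arrays (log2, horizontal) for all probe sets in grey and the 11 member probe sets in colour; 115 probe sets lie beyond the vertical range of ±2.5. Ghsr and Rbp4 (red) passed adjusted p 0.05, and Sst, Ppy and Pyy lie at the bright end, where the grey cloud is narrow.

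Markers of other cells in the preparations were as follows, and their part in the member values was not tested. Duct markers had lower means in 8 of 10, 0 passed (limma, 3 lower and 0 higher at an unadjusted p under 0.05), and a summed log2 level of 13.87 to 14.46 in controls and 14.06 to 14.24 in knockout-labelled arrays. Immune cell markers had higher means in 16 of 20, with 11.04 to 11.15 against 11.53 to 11.89, so the groups did not overlap in this sum. In 7 of the 20 every knockout array lay above every control, against 12.1% of all genes. At an unadjusted p under 0.05 (limma), 7 were higher and 2 lower, against 1523 higher and 1015 lower of all 18193 genes. Of the list 1 rose and 0 fell, against 1.1% of all genes that passed in either direction. The 1 that rose was Laptm5, which encodes a lysosomal protein of leukocytes and read 8.27, 8.07 and 8.18 in controls and 9.55, 9.39 and 9.58 in knockout-labelled arrays (1.34 ± 0.11 SE, adjusted p = 0.00425). Its 4 dimmer probe sets differed by -0.0405 to 0.57 and did not pass. The call was kept in all 6 fits that left out 1 array (adjusted p 0.00826 to 0.0339) and lost without controls 2 and 3 (1.24, adjusted p = 0.1) or given the acinar covariate (1.29, adjusted p = 0.0516). Ptprc, the leukocyte CD45 gene, differed by 1.27 ± 0.42 (adjusted p = 0.275). It passed without control 1 (1.77, adjusted p = 0.0196) and in no other fit that left out 1 array. With the acinar covariate Ptprc differed by 0.65 (limma, adjusted p = 0.726), and without controls 2 and 3 by 0.28. Its other probe set differed by -0.0323. Endothelial markers had higher means in 13 of 15, with 11.16 to 11.92 against 11.64 to 11.82, and stellate and fibroblast markers in 6 of 11, with 11.12 to 11.86 against 11.52 to 11.62. In these lists 0 passed (limma; 0 lower in both and 2 and 1 higher at an unadjusted p under 0.05).

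The genes with the most similar profile were found for Sst, Ghsr and Rbp4 by the mean absolute difference of values centred on each gene's own mean over the 6 arrays. For Sst these were Taf7 (0.0462), Lonrf1 (0.0551) and Fads2 (0.0574). For Ghsr they were Jup (0.0637), Cntn1 (0.101) and Ugt2b34 (0.108), of which Ugt2b34 read 11.87, 12.01 and 11.93 in controls and 10.63, 10.74 and 10.63 in knockout-labelled arrays. For Rbp4 they were Selenbp1 (0.0543), Il1r1 (0.0592) and Tox3 (0.0599). These likenesses rest on 6 arrays in 2 groups and describe the difference between groups as much as the variation within them.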

How the data were processed

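Islet RNA from 6 mice was measured on 1-colour Affymetrix arrays, 3 arrays per group. The deposited log2 values per probe set were made by the authors with RMA (background correction, quantile normalization and probe summary), which is named without a version in the submitters' processing notes. They carry no detection call, and scanner files were not used here. Of 45101 probe sets, 64 manufacturer controls were left out. Platform annotation gave 34945 probe sets a single symbol, 932 several and 9160 none. Of the single-symbol ones, 34741 matched the RefSeq table of GRCm38.p6. A gene outside the members was read on its brightest probe set by the mean of 6 arrays.

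The fit used limma 3.58.1 under R 4.3.3 (lmFit, eBayes, two-sided, group as the term) over 45037 probe sets with Benjamini-Hochberg adjustment. On simulated arrays of that comparison, 36.6% of 2-fold and 1.64% of 1.5-fold changes were called, with 4.65% false calls. The changed probe sets were drawn at random from all levels and spreads, so these rates do not say how callable a given member was. Each probe set was simulated independently, without variation shared between genes such as the acinar level. The rate of false calls therefore need not hold for the measured arrays. Gene lists were described by counts only. The text names every member probe set, the called or the 2 lowest-p genes of the hormone axis, other delta cell, alpha cell and transcription factor lists, Ppard, Ins2, Gcg, the brightest acinar markers and 3 most similar genes each for Sst, Ghsr and Rbp4. Slc30a8, Laptm5, Ptprc, Sox9, Ucn3, Sstr2, Sstr3, Npy4r and Mboat4 fall outside that rule and were named after their values were seen. Members and lists were chosen with earlier results of these data known. Some list entries, such as Ins1, were not measured by a single-symbol probe set. Precision is limited by the 3 arrays per group.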

Additional observations from a re-analysis of the deposited data

How the results depend on the processing

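Alternatives were median centring, quantile normalization again, a floor on the mean level of log2 5, limma with a trend or robust, the replicate number as a block, an acinar covariate, and arrays left out. Sst, Ppy, Pyy, Ghrl, Hhex, Rbp4 and Ghsr stayed below 0 in all 16 alternatives each. Ghsr passed in 10 of 16 (adjusted p 0.00321 to 0.315), Rbp4 in 7 (0.000572 to 0.377), Hhex in 5 (0.0232 to 0.295), Sst in 1 (0.022 to 0.534), Pyy in 1 (0.0271 to 0.571), and Ppy and Ghrl in 0 (0.053 to 0.552 and 0.523 to 0.931). Only Lepr reversed, where nothing passed: the brightest probe set gave -0.0785 as the mean of the gene's probe sets, -0.0637 without control 1 and -0.0356 without knockout 3, with 0.14 as the highest of the fits that left out 1 array and 0.25, without controls 2 and 3, as the highest of all. The dimmest gave -0.00875, -0.0537, -0.0184 and -0.00174 without control 1, control 2, knockout 2 and knockout 3, with 0.11 as the highest of all.

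The replicate block gave 246 calls over all probe sets against 404 without it, and 0 member calls. The deviations of same-numbered arrays correlated at r = -0.0542, 0.141 and 0.00454, and those of differently numbered arrays at -0.129 to 0.105. No label ties the numbers to litters or days. These correlations do not settle whether same-numbered animals shared a litter. With limma's trend there were 887 calls over all probe sets, 5 among members (Sst, Pyy, Hhex, Rbp4 and Ghsr), 2 among hormone axis genes, 3 among alpha cell genes and 1 among transcription factors. The acinar covariate gave 136 over all and 0 for members and alpha cell genes. Leaving out controls 2 and 3 gave 54, 0 and 0. The fit of control 1 against knockouts 2 and 3, chosen after seeing the data, gave 0 calls over all probe sets (2279 lower and 2045 higher at an unadjusted p under 0.05), with 0 for members and 0 for alpha cell genes. It has 1 residual degree of freedom and assumes that the lone control varies as the others do. Alpha cell genes had 2 calls after quantile normalization again and 2 above the floor. Leaving out 1 array gave 152 (control 3) to 783 (control 1) calls over all probe sets, with 239 without control 2, 161 without knockout 1 or knockout 2 and 209 without knockout 3. For the members it gave 0 to 2 calls, for alpha cell genes 0 to 1, for other delta cell genes 0 to 1, and 0 for hormone axis genes and for transcription factors. The causes of these shifts were not tested.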
